A study of Homo sapiens with 11 samples.

Results

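The subject here is promoter H3K4me3 in BEAS-2B cells long after nickel, as the Ni-W library shows it beside the UT library. Both libraries were chosen by their labels, and they are 2 of the 11 samples of the series. The BEAS-2B line was made from normal human bronchial epithelium by immortalization with a hybrid virus and forms no tumours. UT cells were not treated. Ni-W cells had been grown in 100 μM NiCl2 for 6 weeks, plated so thinly that each colony came from 1 cell, and then kept in medium without nickel for more than 6 months. Ni-E cells had the 6 weeks of nickel with no washout, and their 1 library is set beside the other pair for its levels only. The Ni-W population goes back to 1 exposed cell, whereas UT cells were a mixed population, so that the history of a clone, the time in culture and the nickel cannot be told apart. Each condition had 1 library. No p-value is therefore given, and every interval covers counting error only.

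Trimethylation of lysine 4 on histone H3 is laid down around the start sites of genes that are transcribed or ready to be. The SET1 and MLL methyltransferases write it, mostly at promoters rich in CpG, and JmjC demethylases such as KDM5 remove it. Promoters of genes needed in every cell usually carry a high level in all tissues, whereas promoters of developmental and tissue-restricted genes carry little where the gene is silent. Nickel ions can take the place of iron in JmjC enzymes, which is known background to studies of nickel and histone methylation.

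The level of a promoter was the number of reads within 2 kb on each side of its transcription start site, normalized for window length and library depth (RPKM), as the authors deposited it for 26237 genes. The UT library held 28385725 non-redundant reads, the Ni-E library 37493931 and the Ni-W library 29933530. Promoters took 37.6%, 36.0% and 22.9% of these reads, and the median level was 1.57, 1.39 and 1.12 RPKM, in the same order. Each level was divided by the median of its library, the scaling behind the chromatin dynamic score of the study, and the log2 of the ratio of Ni-W to UT cells is called the log2 fold here. Of the 26237 promoters, 13689 (52.2%) had a mean over UT and Ni-W cells of at least 1 RPKM and were compared, and the other 12548 lay below this filter. A promoter with a fold of at least 2 is called gained where it was higher in Ni-W cells and lost where it was lower. The 4 kb windows of neighbouring genes, of genes and their antisense RNAs, and of clustered microRNAs can overlap, and such genes can share reads.

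The cell type was checked against markers. Of 15 bronchial epithelial markers, 8 (KRT7, KRT8, KRT18, EPCAM, CDH1, NKX2-1, FOXA1 and FOXJ1) had at least 1 RPKM in UT, against 6 in Ni-W cells. The remaining members of the same list lay below 1 RPKM in both. They were KRT5, KRT14 and TP63 of basal cells, SCGB1A1 of club cells, MUC5AC of goblet cells, SFTPC of alveolar cells, and KRT19. The members of the epithelial list thus went both ways. Of 9 mesenchymal markers, 5 were marked in both conditions, with VIM at 8.95 and 4.67 RPKM in UT and Ni-W cells. These counts did not set the epithelial list apart from the mesenchymal one. Endothelial cells had 1 marked gene of 6 (KDR), blood cells 1 of 7 (CD14) and neurons 2 of 6 (SYT1 and TUBB3), the same number in UT and Ni-W cells. PTPRC, the pan-leukocyte marker, had 0 reads in every library. The summed level of the epithelial list was 36.3 and 23.4 RPKM in UT and Ni-W cells, and that of the mesenchymal list 30.4 and 15.7. These levels are not scaled, and the median of all promoters compared was 6.23 and 3.59 RPKM. After scaling, CDH1, 1 of the genes below 1 RPKM in Ni-W cells, had a log2 fold of −0.06, and KRT8 and KRT18 had −0.22 and −0.24.

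The promoters that follow are shown for their base composition, since H3K4 methyltransferase complexes are recruited in part through CpG pairs. They are, among the 10 largest gains and the 10 largest losses, the first 2 in each direction for which RefSeq (GRCh38.p14) gives a single promoter whose start lies within 250 bases of the outermost GENCODE start. Each is the 250 bases before the start site, 5′ to 3′ on the strand of the gene, with CG pairs in capitals. CADM3 and FSTL5 were gained, and GLDC and ACTL10 were lost.
CADM3, chr1:159171365-159171614, plus strand: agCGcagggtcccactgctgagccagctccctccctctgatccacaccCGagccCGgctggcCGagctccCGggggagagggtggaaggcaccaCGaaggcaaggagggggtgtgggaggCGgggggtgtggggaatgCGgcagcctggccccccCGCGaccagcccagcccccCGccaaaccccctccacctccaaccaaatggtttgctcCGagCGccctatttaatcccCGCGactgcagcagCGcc
FSTL5, chr4:162164001-162164250, minus strand: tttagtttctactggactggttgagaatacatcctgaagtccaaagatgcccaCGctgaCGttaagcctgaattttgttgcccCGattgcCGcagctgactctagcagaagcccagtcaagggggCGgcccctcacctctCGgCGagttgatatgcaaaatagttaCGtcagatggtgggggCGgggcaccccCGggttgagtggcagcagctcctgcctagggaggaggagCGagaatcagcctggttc
GLDC, chr9:6645730-6645979, minus strand: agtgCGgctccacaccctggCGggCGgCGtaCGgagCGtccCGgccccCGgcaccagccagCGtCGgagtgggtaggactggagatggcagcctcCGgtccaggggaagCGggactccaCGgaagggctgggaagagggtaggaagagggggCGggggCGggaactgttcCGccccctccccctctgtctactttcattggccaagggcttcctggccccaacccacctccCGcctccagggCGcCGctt
ACTL10, chr20:33666693-33666942, plus strand: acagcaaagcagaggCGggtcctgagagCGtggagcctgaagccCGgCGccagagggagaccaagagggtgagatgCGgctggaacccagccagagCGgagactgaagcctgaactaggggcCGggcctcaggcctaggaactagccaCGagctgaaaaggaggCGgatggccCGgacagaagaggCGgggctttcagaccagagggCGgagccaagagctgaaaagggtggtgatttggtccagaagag
The pairs number 16 in CADM3, 11 in FSTL5, 19 in GLDC and 12 in ACTL10, and the median of 12159 promoters of this length was 17. At least as many were found in 52.9% of those promoters for CADM3, 63.5% for FSTL5, 44.9% for GLDC and 61.8% for ACTL10. Neither pair of promoters stood apart from the rest by this count.

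MicroRNA genes and their host transcripts supplied 25 of the gained windows. Mature sequences of called genes that are related in sequence or position are shown as RefSeq gives them (GRCh38.p14) with the seed, bases 2 to 8, in capitals. All come from gained windows except that of MIR497, which was lost. The first 4 share the seed AGCAGCA, and miR-503-5p is listed with them because its gene lies beside MIR424.
miR-15b-5p, from MIR15B: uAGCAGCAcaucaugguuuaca
miR-16-5p, from MIR16-2: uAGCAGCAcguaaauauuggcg
miR-424-5p, from MIR424: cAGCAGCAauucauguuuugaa
miR-497-5p, from MIR497: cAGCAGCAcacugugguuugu
miR-503-5p, from MIR503: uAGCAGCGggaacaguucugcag
The next 5 come from the cluster of MIR17 to MIR92A1 on chromosome 13, of which miR-19a-3p and miR-19b-3p share a seed.
miR-18a-5p, from MIR18A: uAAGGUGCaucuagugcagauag
miR-19a-3p, from MIR19A: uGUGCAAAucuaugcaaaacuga
miR-20a-5p, from MIR20A: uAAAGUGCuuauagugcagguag
miR-19b-3p, from MIR19B1: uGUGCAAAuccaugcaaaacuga
miR-92a-3p, from MIR92A1: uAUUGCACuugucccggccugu
The last is the microRNA with the largest gain.
miR-125b-5p, from MIR125B1: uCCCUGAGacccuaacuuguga

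Across the 13689 promoters, 203 were gained (1.48% of those compared) and 152 were lost (1.11%). Gains were mostly of promoters with little H3K4me3 in UT cells, among them those of adhesion proteins, axon guidance proteins, neurotransmitter receptors and potassium channels. Several of these passed the filter through Ni-W cells alone. Over promoters with at least 1 RPKM in Ni-E cells, 1 of 7 classical cadherins and 1 of 33 potassium channels were gained. Of semaphorins and plexins, 1 was gained and 2 were lost of 21, and of GABA and glutamate receptors 0 of 9 were gained. Losses were spread over promoters from about 1 RPKM up and numbered 2 or fewer in most gene lists, and 44 of them lay in the first 40 Mb of chromosome 9. The median level of the gained promoters was 1.15 RPKM in UT, 1.18 in Ni-E and 2.34 in Ni-W. That of the lost promoters was 4.14, 3.71 and 1.37 RPKM, and that of all promoters compared 6.23, 5.99 and 3.59 RPKM. In both sets Ni-E cells lay near UT cells. Of the gained promoters, 88 were below 1 RPKM in UT cells, and of the lost promoters 52 were below it in Ni-W cells.

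The typical promoter was not at 0 on this scale. The median log2 fold was −0.32, with quartiles of −0.53 and −0.05, and it was −0.81 on the deposited RPKM with no scaling. Changes of gene lists are therefore given relative to the median of all promoters compared. The centre chosen moved the number of losses far more than that of gains. Without scaling, 70 promoters were gained and 3671 lost (1.87% of calls gained, against 57.2% with scaling). Quantile normalization gave 295 gained and 87 lost (77.2%), centring on marked promoters 410 and 17 (96.0%), and centring within classes of level 366 and 36 (91.0%). All 203 gained promoters were kept under either centring and 199 under quantile normalization. Centring on marked promoters subtracted −0.34 from every log2 fold, so that no gain could drop out. Centring by level also raised the gains named here, so that neither centring tests the gains. The lost promoters kept were 69 under quantile normalization, 36 under centring by level and 17 under centring on marked promoters. On the deposited RPKM, all 203 gained promoters were higher in Ni-W cells and 70 were at least 2-fold higher. The first count was fixed by the scaling, since the library medians differ by 1.40-fold, less than the 2-fold threshold. The counting interval lay wholly beyond 2-fold at 113 gained and 22 lost promoters.

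**Figure D1:**
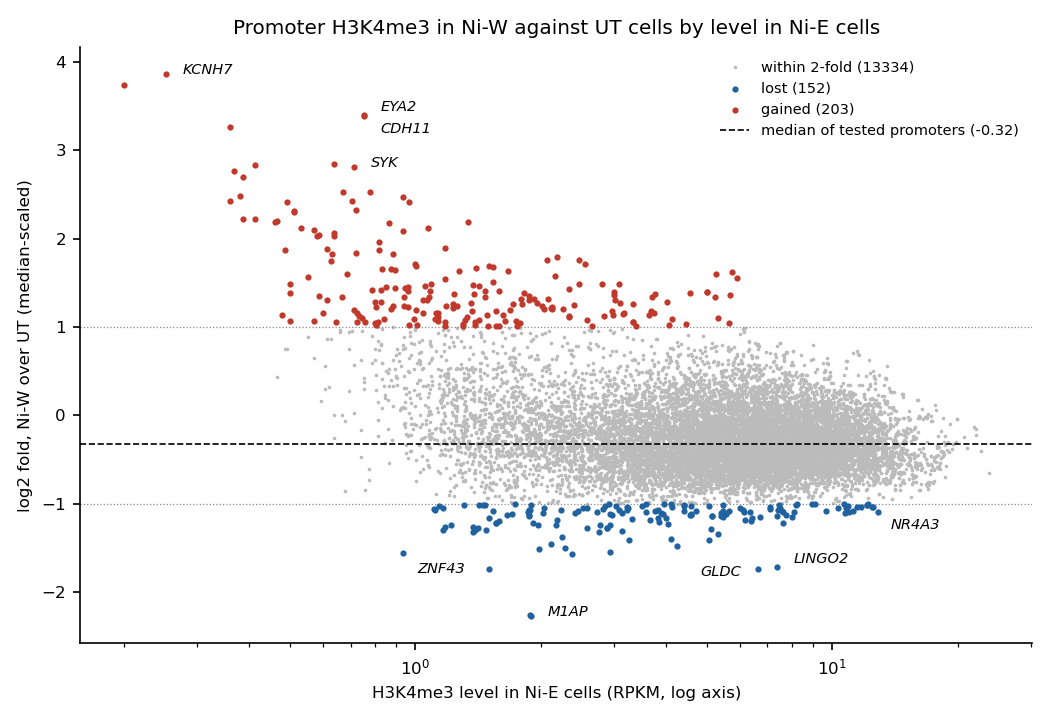
Each point is 1 of the 13689 promoters compared, with its H3K4me3 level in Ni-E cells (RPKM, log axis) on the x axis and the median-scaled log2 fold of Ni-W over UT cells on the y axis. The 203 gained promoters (red) sit at low levels, the 152 lost promoters (blue) at all levels from about 1 RPKM up, and the dashed line is the median of −0.32.

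The level of Ni-E cells, which entered neither side of the fold, showed where the calls lay. Over all promoters of a class, compared or not, the median log2 fold fell as this level rose. It was 0.41 below 0.6 RPKM, −0.20 at 1 to 3 RPKM and −0.37 above 10 RPKM, so that weak promoters lay higher as a whole. Whether this comes from the smaller share of Ni-W reads in promoters (22.9%, against 37.6% in UT) was not tested. No promoter above 6 RPKM in Ni-E cells was gained, among 4960 at 6 to 10 RPKM and 1877 above 10. Of 4514 promoters at 3 to 6 RPKM, 29 were gained and 47 lost. Of 2129 at 1 to 3 RPKM, 91 were gained and 62 lost. Below 1 RPKM in Ni-E cells, 27 of 33 (under 0.6 RPKM) and 56 of 176 (0.6 to 1 RPKM) were gained, but a promoter of that class passed the filter only where UT or Ni-W cells were higher, so that its share of calls says little. At 6 to 10 RPKM 27 promoters were lost and above 10 RPKM 15. Restricting the comparison to promoters with at least 1 RPKM in Ni-E cells, a choice made after the data were seen, gave 122 gained and 171 lost.

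**Figure D2:**
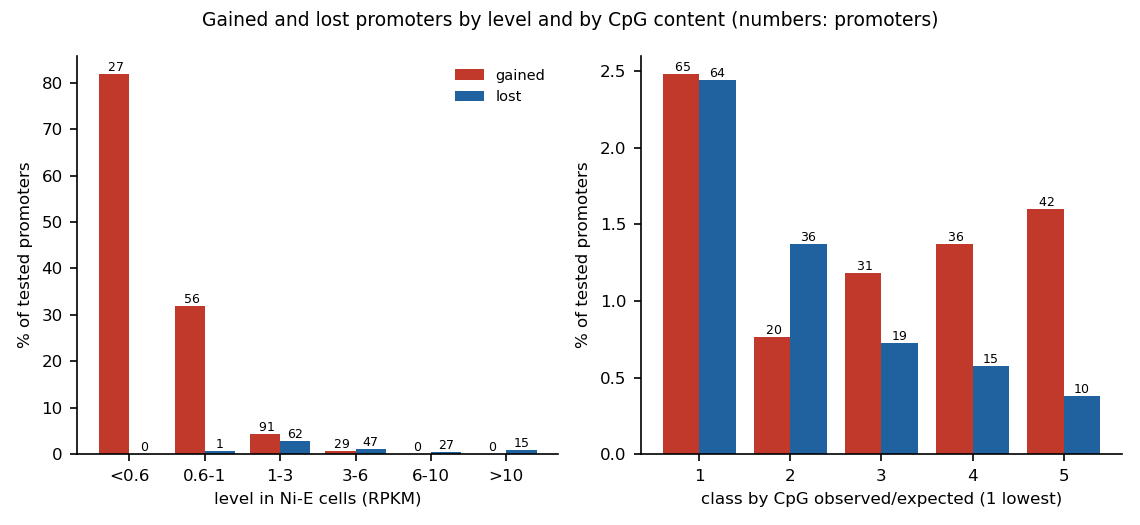
Share of the promoters compared (%) that were gained (red) or lost (blue), by the H3K4me3 level in Ni-E cells (left) and by class of observed over expected CpG ratio (right, 5 classes of equal size), with the number of promoters above each bar. No promoter above 6 RPKM was gained, and the class with the least CpG held 65 gained and 64 lost promoters.

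Gained promoters had a median CpG content near that of all promoters but reached further down. The median ratio of observed to expected CpG pairs in the 4 kb window was 0.553 at gained promoters, 0.472 at lost promoters and 0.567 at all promoters compared, against 0.263 at background promoters, those under 0.6 RPKM in both UT and Ni-W cells. The lower quartile was 0.364 at gained and 0.472 at all promoters compared. The median GC content was 47.7%, 53.8% and 51.4% at gained, lost and all promoters compared. Among 5 classes of equal size by CpG ratio, the lowest held 65 gained (2.48%) and 64 lost (2.44%) promoters among 2622. Over the other classes in rising order, the lost promoters numbered 36, 19, 15 and 10, and the gained promoters 20, 31, 36 and 42. The median level in UT cells also rose over the 5 classes, from 4.57 RPKM in the lowest to 7.92 RPKM in the highest. CpG content and level were therefore not separated by these counts. The base composition of the libraries was not equalized in the main values. With centring by GC content, 302 promoters were gained and 28 lost of the 13110 with a position, and 184 gained and 23 lost promoters were kept.

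The 10 largest gains, symbols of noncoding RNAs left out, were KCNH7, EYA2, CDH11, GRB14, CADM3, PCDH20, SYK, FSTL5, CADM2 and GRB7. KCNH7, a voltage-gated potassium channel of the ERG family on chromosome 2 from 162371407 to 162838767, had 29 reads in the UT library (0.255 RPKM, 95% interval 0.178 to 0.367), 38 in Ni-E (0.253 RPKM) and 317 in Ni-W (2.65 RPKM, 2.37 to 2.96). Ni-W cells stood alone, at 14.6 times UT cells after scaling, a log2 fold of 3.86 (3.31 to 4.46). EYA2, a transcriptional coactivator with phosphatase activity in organ development (chromosome 20, 46894624 to 47188844), held 0.335 RPKM in UT (38 reads), 0.753 in Ni-E (113 reads) and 2.52 in Ni-W (302 reads). CDH11, the cadherin of osteoblasts and mesenchyme (chromosome 16, 64943753 to 65126112), held 0.308 RPKM in UT (35 reads), 0.753 in Ni-E (113 reads) and 2.30 in Ni-W (275 reads). At EYA2 and CDH11, unlike at KCNH7, Ni-E cells lay between UT and Ni-W cells, with no overlap of the intervals. Relative to UT cells, Ni-W cells were 10.5 times as high at both after scaling (7.52 to 15.2 for EYA2 and 7.33 to 15.3 for CDH11).

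Adaptors and a kinase of receptor signalling were also among the 10. GRB14, which binds the insulin receptor through its SH2 domain, held 0.282 RPKM in UT (32 reads), 0.360 in Ni-E (54 reads) and 1.93 in Ni-W (231 reads). GRB7, a related adaptor of receptor tyrosine kinases, held 0.775 RPKM in UT (88 reads), 0.380 in Ni-E (57 reads) and 3.09 in Ni-W (370 reads). Ni-E cells were the lowest at GRB7. SYK, the tyrosine kinase of immune receptor signalling, had a log2 fold of 2.81 (2.45 to 3.18). The remaining members of the 10 were adhesion and secreted proteins. PCDH20, a protocadherin on chromosome 13, held 0.458 RPKM in UT (52 reads), 0.413 in Ni-E (62 reads) and 2.32 in Ni-W (278 reads). FSTL5, a secreted protein related to follistatin whose promoter is printed above, held 0.343, 0.367 and 1.66 RPKM in the UT, Ni-E and Ni-W libraries (39, 55 and 199 reads). CADM2, an immunoglobulin-type adhesion protein of neurons, held 0.705, 0.780 and 2.91 RPKM (80, 117 and 348 reads), and its relative CADM3 had a log2 fold of 2.85 (2.42 to 3.30). In each of these Ni-E cells lay close to UT cells, and Ni-W cells lay above both with no overlap of the intervals.

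**Figure D3:**
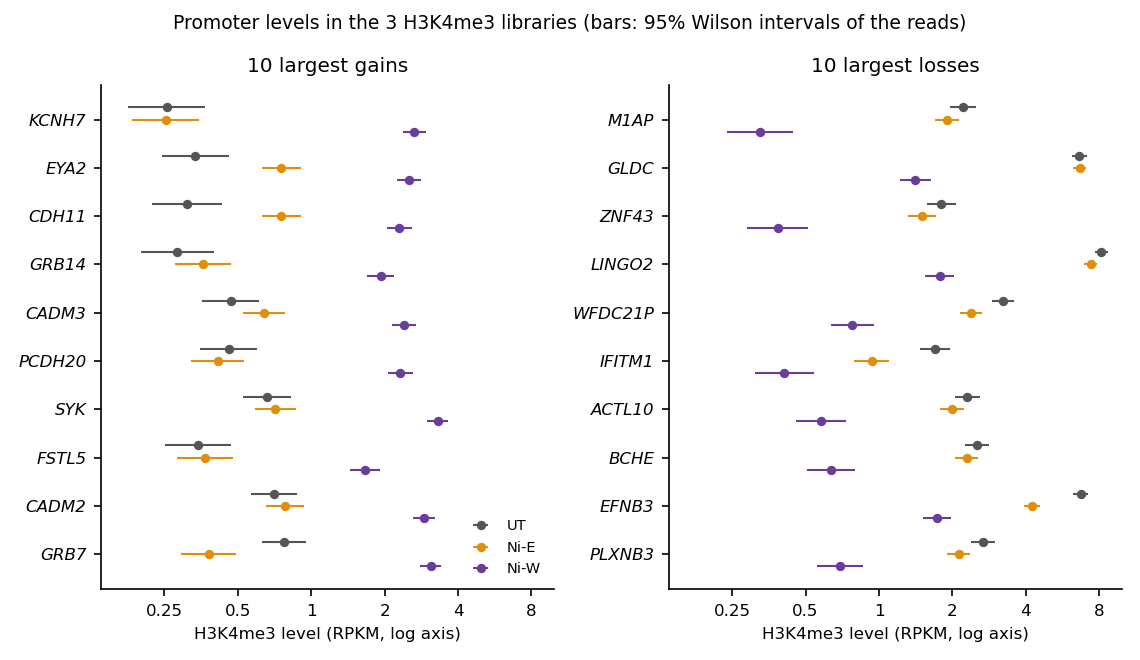
H3K4me3 level (RPKM, log axis) of the 10 promoters with the largest gain (left) and the largest loss (right) in the UT, Ni-E and Ni-W libraries, with 95% Wilson intervals of the reads as bars. Ni-W cells lie to the right of both other libraries at every gained promoter and to the left at every lost promoter.

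The 10 largest losses, symbols of noncoding RNAs left out, were M1AP, GLDC, ZNF43, LINGO2, WFDC21P, IFITM1, ACTL10, BCHE, EFNB3 and PLXNB3. M1AP (chromosome 2, 74557883 to 74648338), which acts in meiosis, held 2.21 RPKM in UT (251 reads), 1.90 in Ni-E (285 reads) and 0.326 in Ni-W (39 reads, 0.238 to 0.445). After scaling it was 4.84-fold lower in Ni-W than in UT cells (3.45 to 6.97). LINGO2, a leucine-rich repeat protein of neuronal membranes on chromosome 9, held 8.17 RPKM in UT (928 reads), 7.38 in Ni-E (1107 reads) and 1.77 in Ni-W (212 reads). With GLDC, the glycine decarboxylase of the glycine cleavage system (log2 fold −1.74, −1.99 to −1.50), LINGO2 went from a well marked promoter to a weak one. EFNB3, a transmembrane ephrin ligand, held 6.73, 4.25 and 1.73 RPKM in the UT, Ni-E and Ni-W libraries (764, 638 and 207 reads). IFITM1, an interferon-induced protein that limits the entry of viruses, held 1.69, 0.933 and 0.409 RPKM (192, 140 and 49 reads). At EFNB3 and IFITM1 the Ni-E library lay between the others. BCHE, the butyrylcholinesterase of plasma, held 2.52, 2.29 and 0.635 RPKM (286, 343 and 76 reads), and PLXNB3, a receptor of semaphorins, 2.67, 2.12 and 0.693 RPKM (303, 318 and 83 reads). ZNF43, a zinc finger repressor, WFDC21P, a transcribed pseudogene, and ACTL10, an actin-like protein, had log2 folds of −1.74, −1.57 and −1.52. All 10 stayed lower than UT cells under every scaling tried, which says little, since the scalings shifted log2 folds by less than these losses. The losses of M1AP, GLDC, ZNF43, LINGO2, WFDC21P, IFITM1, ACTL10, BCHE and EFNB3 were smaller with centring by level (−2.14, −1.38, −1.61, −1.32, −1.37, −1.43, −1.38, −1.37 and −1.09).

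The promoters were grouped into 65 lists of genes by function or family, of which 61 had at least 5 members above the filter. A weak promoter could pass the filter through a high level in Ni-W cells alone. The share of gains and the median of a list of weak promoters are therefore partly set by the filter. Shares of the lists with the most gains are therefore also given over the promoters with at least 1 RPKM in Ni-E cells, where 122 of 13688 (0.891%) were gained. For extracellular matrix and adhesion genes, over the 12 lists of this theme, 135 of 345 listed promoters were compared. Of these, 9 were gained (6.67%) and 0 lost, against 1.48% and 1.11% of all promoters, and 6 of 138 were gained with the Ni-E filter. Their median log2 fold lay 0.17 above that of all promoters, with levels of 4.12, 3.58 and 2.59 RPKM in the UT, Ni-E and Ni-W libraries. Of 615 promoters compared in the 12 lists of housekeeping machinery, by contrast, 1 was gained and 2 were lost, and their median lay within 0.01 of zero relative to all promoters, from levels of 7.88, 7.76 and 4.74 RPKM. The themes differ in level, and gains were rare at strong promoters of any function, so that function and level were not separated by these counts.

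**Figure D4:**
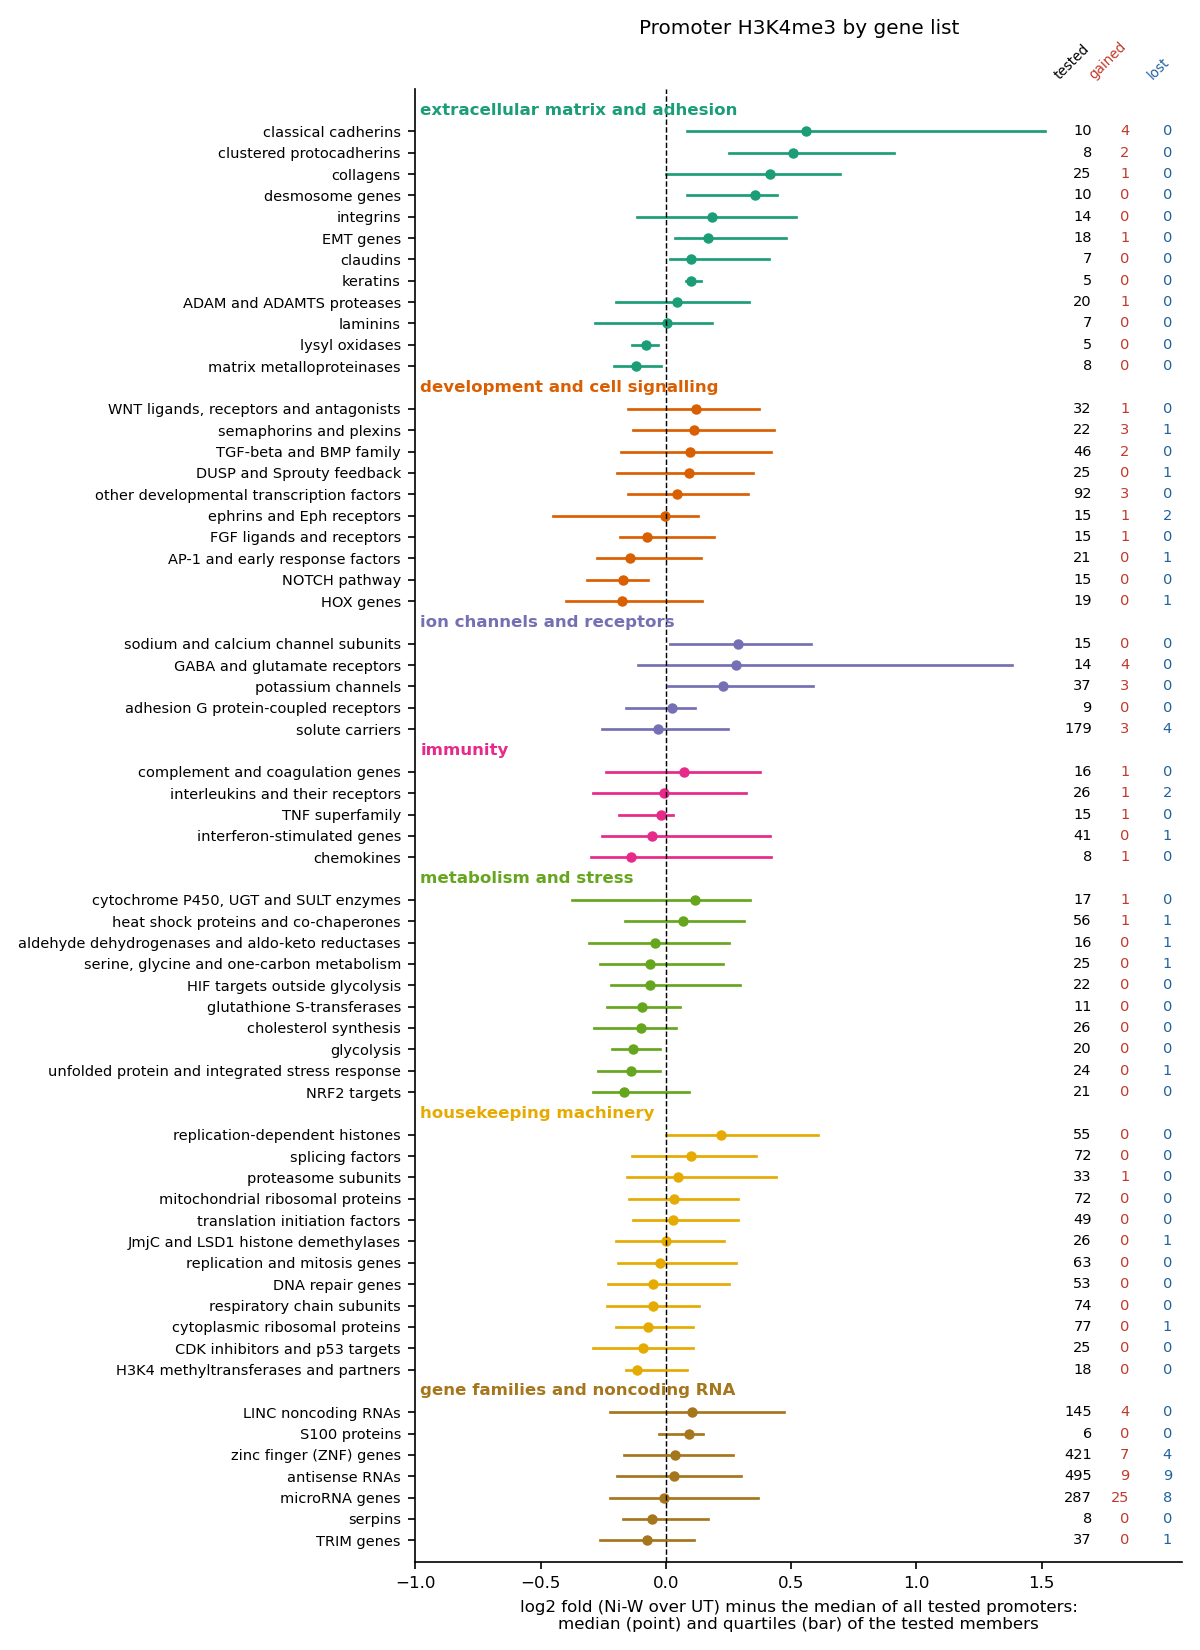
Median (point) and quartiles (bar) of the log2 fold of Ni-W over UT cells in each gene list, minus the median of all promoters compared, with the number of members compared, gained and lost at the right. Classical cadherins, clustered protocadherins and collagens lie furthest to the right, and HOX genes, NOTCH pathway genes and NRF2 targets furthest to the left. Medians of lists of weak promoters are partly set by the filter, which members can pass through Ni-W cells.

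Cadherins are the calcium-dependent proteins that join like cells. Of the 23 listed CDH genes, 10 were compared and 13 lay below the filter, and CDH11, CDH4, CDH10 and CDH22 were gained. Of these, CDH11, CDH4 and CDH22 were below 1 RPKM in UT and Ni-E cells and passed through Ni-W cells, and with the Ni-E filter 1 of 7 was gained. CDH4, the cadherin of retina and brain, held 0.898 RPKM in UT (102 reads), 0.933 in Ni-E (140 reads) and 3.55 in Ni-W (425 reads), a log2 fold of 2.47 (2.15 to 2.80). CDH10 held 1.62, 1.11 and 2.46 RPKM and CDH22 0.757, 0.807 and 1.26 RPKM in the UT, Ni-E and Ni-W libraries. These 4 were weakly marked in UT cells. The strongest promoter of the list, that of the mesenchymal CDH2, held 14.6, 13.3 and 8.57 RPKM in the 3 libraries (log2 fold −0.28), and that of the epithelial CDH1 lay under the filter at 1.02, 0.653 and 0.702 RPKM. Relative to all promoters, the median of the 10 lay at 0.56, and at 0.22 to 0.73 over the alternatives tried. Of the clustered protocadherins, neuronal surface proteins expressed from alternative promoters, 8 of 53 were compared and 2 were gained (2 of 13 with the Ni-E filter). Their median lay 0.51 above that of all promoters, but at −0.16 with a mean of at least 3 RPKM. PCDHAC1 held 0.793 RPKM in UT (90 reads), 1.34 in Ni-E (201 reads) and 2.59 in Ni-W (310 reads). PCDHAC2 held 1.35, 1.56 and 2.18 RPKM in the same order.

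Other adhesion and matrix lists had at most 1 call each. The 25 collagen promoters compared had a median 0.41 above that of all promoters (0.02 to 0.44 over the alternatives), and 18 lay above it. COL15A1, a collagen of basement membranes, was the only one past 2-fold, at 1.05, 1.13 and 1.62 RPKM in the UT, Ni-E and Ni-W libraries. The 10 desmosome promoters lay 0.35 above (0.14 to 0.39), with 0 called and 8 above the median of all promoters. Integrins, the receptors of the matrix, had 0 called of 14 and a median 0.18 above, which turned to −0.01 with the regional shift removed and to −0.08 with no filter. The genes of the epithelial to mesenchymal transition had 1 gained of 18, the homeobox factor PRRX1 (1.16, 1.23 and 1.92 RPKM), and a median 0.17 above. ADAMTS9, a protease of proteoglycans, was the 1 gained of 20 ADAM and ADAMTS genes, at 2.32, 2.26 and 3.82 RPKM. Laminins (7 compared), matrix metalloproteinases (8), lysyl oxidases (5), claudins (7) and keratins (5) had 0 called. Their medians lay between −0.12 and 0.10 relative to all promoters.

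Signals that guide axons and shape tissues supplied both gains and losses. Over the 10 lists of development and signalling, 11 of 302 promoters were gained (3.64%) and 6 lost (1.99%), against 1.48% and 1.11% of all promoters. With the Ni-E filter, 6 were gained (2.03%) and 8 lost (2.71%) of 295, against 0.891% and 1.25% of all promoters. Semaphorins and plexins, the guidance ligands and their receptors, had 3 gained and 1 lost of 22, and 1 and 2 of 21 with the Ni-E filter. SEMA6D held 0.599 RPKM in UT (68 reads), 0.387 in Ni-E (58 reads) and 2.00 in Ni-W (239 reads). SEMA3E held 0.793, 0.640 and 2.36 RPKM and SEMA6A 2.60, 2.55 and 6.08 RPKM, both with Ni-E cells near UT cells. The lost member was the receptor PLXNB3. Among ephrins and their receptors, the receptor EPHA6 was gained, at 0.934, 0.887 and 2.35 RPKM, and the ligands EFNB1 and EFNB3 were lost, EFNB1 at 5.72, 6.13 and 1.91 RPKM.

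Growth factor families had few calls. WNT7A, a ligand of the WNT pathway, was the 1 gained of 32 WNT genes, at 1.20, 1.36 and 2.07 RPKM in the UT, Ni-E and Ni-W libraries. Of 46 TGF-beta and BMP genes, the receptors ACVR1C (1.18, 1.18 and 1.75 RPKM) and BMPR1B (1.19, 1.18 and 1.70 RPKM) were gained. FGF12, an intracellular member of the FGF family that binds sodium channels, was the 1 gained of 15 and held 0.537, 0.587 and 1.58 RPKM. Of 92 developmental transcription factors outside the HOX clusters, SOX21, OLIG1 and FOXB1 were gained and 0 lost. SOX21, a factor of neural progenitors, held 2.08, 2.11 and 3.45 RPKM. HOX genes went the other way as a list, with 1 lost of 19, HOXC8 (7.05, 6.34 and 2.36 RPKM), and a median of −0.18 relative to all promoters that reached 0.01 with no filter. DUSP2, a phosphatase that turns off MAP kinases, was the 1 lost of 25 DUSP and Sprouty genes, at 3.91, 5.46 and 1.38 RPKM. NR4A3, an early response nuclear receptor, was the 1 lost of 21 AP-1 and early response factors, at 12.6, 12.9 and 4.21 RPKM. The NOTCH pathway had 0 called of 15, with a median of −0.17 and 2 above that of all promoters.

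Over the 5 lists of channels, receptors and transporters, 10 of 254 promoters were gained (3.94%), and 5 with the Ni-E filter (2.01%). Of 14 GABA and glutamate receptor genes compared of 46 listed, 4 were gained, GRIA4, GABBR2, GRIA2 and GABRQ. GRIA4, a subunit of AMPA-type glutamate receptors, held 0.661 RPKM in UT (75 reads), 0.493 in Ni-E (74 reads) and 2.52 in Ni-W (302 reads). GABBR2, a subunit of the GABA-B receptor, held 0.617, 0.533 and 1.92 RPKM, GRIA2 held 0.599, 0.820 and 1.67 RPKM, and GABRQ 0.819, 0.480 and 1.29 RPKM. All 4 were under 1 RPKM in UT and in Ni-E cells and passed the filter through Ni-W cells. With the Ni-E filter, 0 of 9 were gained. The list had a median 0.28 above that of all promoters, and 1 of its genes averaged 3 RPKM or more, at −0.17. Potassium channels had 3 gained of 37 (1 of 33 with the Ni-E filter), KCNH7, KCNH1 and KCNK1, and a median 0.23 above (0.14 to 0.35), with 28 above the median of all promoters. KCNK1, a background potassium channel, held 0.951, 1.05 and 1.88 RPKM. Sodium and calcium channel subunits had 0 called of 15 and a median 0.29 above (0.05 to 0.36), and adhesion G protein-coupled receptors 0 of 9. Solute carriers, the membrane transporters of metabolites and ions, had 3 gained (1.68%) and 4 lost (2.23%) of 179. Among them were SLC9A9, a sodium and proton exchanger of endosomes (222, 320 and 391 reads), SLC6A15, a neutral amino acid transporter (0.837, 1.13 and 1.33 RPKM), SLC2A4, the insulin-regulated glucose transporter (4.38, 3.83 and 1.49 RPKM), and SLC43A3 (5.27, 5.11 and 1.54 RPKM). The first pair was gained and the second lost.

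Of 110 immune promoters, 4 were gained (3.64%) and 3 lost (2.73%), against 1.48% and 1.11% of all promoters compared, a difference of few genes. The gained ones were marked more strongly in UT cells than most gains. IL7R, the interleukin 7 receptor, held 4.39 RPKM in UT (499 reads), 3.65 in Ni-E (547 reads) and 6.88 in Ni-W (824 reads). TNFRSF11B, the decoy receptor osteoprotegerin, held 4.82, 3.01 and 8.84 RPKM (547, 451 and 1058 reads). CXCL8, the neutrophil chemokine interleukin 8, held 2.48, 1.65 and 3.71 RPKM, and TFPI, the inhibitor of the tissue factor pathway of coagulation, 341, 310 and 867 reads, or 7.24 RPKM in Ni-W. In all 4 the Ni-E library was the lowest. The lost ones were the receptor subunits IL12RB1 (1.98, 1.37 and 0.568 RPKM) and IL11RA (223, 238 and 73 reads), and IFITM1, the only one called of 41 interferon-stimulated genes. The counts by list were 1 gained of 8 chemokines, 1 gained and 2 lost of 26 interleukins and receptors, 1 gained of 15 TNF superfamily genes, 1 gained of 16 complement and coagulation genes, and 0 of 4 MHC and antigen presentation genes (17 listed).

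Metabolic and stress genes had 2 gained (0.847%) and 5 lost (2.12%) of 236, against 1.48% and 1.11% of all promoters compared, a difference of few genes. Lost promoters were those of GLDC, 1 of 25 genes of serine, glycine and one-carbon metabolism, of MT1E, 1 of 4 metallothioneins, which bind metal ions (2.54, 1.54 and 0.860 RPKM in the UT, Ni-E and Ni-W libraries), and of ALDH1B1, a mitochondrial aldehyde dehydrogenase (5.28, 5.47 and 1.77 RPKM). The others were DNAJB5, an HSP40 co-chaperone (3.43, 2.97 and 1.12 RPKM), and VLDLR, the lipoprotein receptor, which stood in the list of unfolded protein and integrated stress response genes (9.55, 7.77 and 3.12 RPKM). GLDC, ALDH1B1, DNAJB5 and VLDLR lie in the first 40 Mb of chromosome 9, where 44 of 152 promoters compared were lost. The gained promoters were those of DNAJB4, another HSP40 co-chaperone (6.87, 5.70 and 12.6 RPKM; 780, 855 and 1506 reads), and of CYP39A1, an oxysterol hydroxylase (2.93, 3.33 and 4.35 RPKM). Both were among the stronger gained promoters. Glycolysis (20 compared), HIF targets outside glycolysis (22), cholesterol synthesis (26), NRF2 targets (21) and glutathione S-transferases (11) had 0 called, with medians of −0.17 to −0.06 relative to all promoters. Cytochrome P450, UGT and SULT enzymes had 1 gained of 17, aldehyde dehydrogenases and aldo-keto reductases 1 lost of 16, heat shock proteins and co-chaperones 1 gained and 1 lost of 56, and unfolded protein and integrated stress response genes 1 lost of 24.

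Housekeeping genes were the least called. Among the calls were PSMD14, a deubiquitinase of the proteasome lid, which was gained (5.76, 5.65 and 8.45 RPKM in the UT, Ni-E and Ni-W libraries), and KDM4C, a JmjC demethylase of H3K9 and H3K36, which was lost (9.90, 10.3 and 3.42 RPKM). PSMD14 was 1 of 33 proteasome genes and KDM4C 1 of 26 JmjC and LSD1 demethylases. None was called of 72 mitochondrial ribosomal proteins, 74 respiratory chain subunits, 49 translation initiation factors, 72 splicing factors, 63 replication and mitosis genes, 53 DNA repair genes, 25 CDK inhibitors and p53 targets, and 18 H3K4 methyltransferases and partners. The list of H3K4 methyltransferases and partners lay at −0.11 relative to all promoters, and at −0.32 to −0.01 over the alternatives. Replication-dependent histone genes, with 0 called of 55, lay 0.22 above, and 0.04 above with centring by GC content.

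Zinc finger (ZNF) genes had 7 gained (1.66%) and 4 lost (0.95%) of 421, near the 1.48% and 1.11% of all promoters. ZNF577 held 0.458, 0.513 and 1.61 RPKM in that order of libraries, and ZNF804A held 2.30, 2.47 and 5.55 RPKM. ZNF43 and ZNF738, both on chromosome 19, were the largest losses of the family, ZNF738 at 3.22, 2.94 and 0.969 RPKM. TRIM genes had 1 lost of 37, TRIM6 (2.48, 1.87 and 0.802 RPKM), and S100 proteins (6 compared) and serpins (8) had 0 called. LINC noncoding RNAs had 4 gained of 145, among them LINC00437 (0.617, 0.673 and 2.53 RPKM) and LINC01111 (1.55, 0.887 and 2.61 RPKM). Antisense RNAs had 9 gained and 9 lost of 495 (1.82% each). ZNF649-AS1 was gained at 0.449, 0.513 and 1.59 RPKM, and VLDLR-AS1 and KIRREL3-AS3 were lost, at 9.79, 8.04 and 3.14 RPKM and at 2.99, 2.59 and 0.885 RPKM. No cancer-testis antigen of 93 listed and 1 olfactory receptor of 395 passed the filter, and that one was not called.

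The windows of microRNA genes surround the hairpin and need not hold the start of the primary transcript. Of 287 compared, 25 were gained (8.71%) and 8 lost (2.79%), against 1.48% and 1.11% of all promoters. With the Ni-E filter, 20 were gained (6.80%) and 9 lost (3.06%) of 294, against 0.891% and 1.25% of all promoters. These counts include the host transcripts MIR181A2HG, MIR503HG and MIR497HG, and the other 30 called genes had a mature sequence in RefSeq. MIR125B1 on chromosome 11, the source of the miR-125b-5p printed above, held 27 reads in UT, 30 in Ni-E and 272 in Ni-W, or 0.238 RPKM in UT and 2.27 RPKM in Ni-W. Its log2 fold of 3.74 (3.17 to 4.37) was near that of KCNH7. Of the 4 genes with the seed AGCAGCA, 3 were gained and 1 lost. MIR15B and MIR16-2, neighbours on chromosome 3, held 8.13, 5.90 and 17.1 RPKM and 7.43, 5.28 and 16.1 RPKM in the UT, Ni-E and Ni-W libraries, so that these overlapping windows count as 1 signal. MIR424 and MIR503 on chromosome X shared reads in the same way and held 2.53, 2.33 and 3.92 RPKM and 1.79, 1.54 and 3.62 RPKM. The lost one was MIR497 on chromosome 17, at 1.66, 1.22 and 0.501 RPKM. The 5 called windows of the MIR17 to MIR92A1 cluster ranged from 1.80 RPKM (MIR92A1) to 3.46 (MIR18A) in UT, from 2.19 to 3.69 in Ni-E and from 4.43 to 5.62 in Ni-W. MIR17 itself, at 4.60, 4.51 and 6.18 RPKM, was not called (log2 fold 0.91). All lie side by side on chromosome 13, where promoters were higher as a whole. MIR5190 (2.53, 1.89 and 0.376 RPKM) and MIR3677 (2.77, 2.18 and 0.835 RPKM) were the lost microRNA genes that the naming rule selected.

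Calls were not spread evenly over the chromosomes. The stretches and chromosomes that follow were singled out by their values in these data. Their counts and medians are therefore partly set by that choice. From 0 to 40 Mb of chromosome 9, 44 of 152 promoters were lost (28.9%) and 1 was gained, and 135 of the 152 lay below the median of all promoters. Outside this stretch, 108 of 13537 promoters were lost (0.798%). Between 30 and 40 Mb, 33 of 83 were lost, among them STOML2, a mitochondrial membrane protein (5.11, 5.34 and 1.44 RPKM in the UT, Ni-E and Ni-W libraries), and BAG1, a co-chaperone of HSP70 (12.2, 12.6 and 4.27 RPKM), both picked after their values were seen. The median of that window was −0.61 relative to all promoters, and its 32 background promoters, which carry next to no mark, lay at −0.60, from 953 reads in UT to 643 in Ni-W. Over the whole 40 Mb the background lay at −0.21 (−0.29 to −0.13) and the promoters compared at −0.54. From 20 to 30 Mb the 2 kinds differed in sign, with background at 0.16 (805 and 916 reads) and promoters compared at −0.27. Chromosome 13 went the other way, with 26 gained and 0 lost of 264 (9.85%), 255 above the median of all promoters and a median of 0.53. Its background promoters lay at 0.43 (0.39 to 0.48). From 150 to 200 Mb of chromosome 2, which holds KCNH7, GRB14, PSMD14, TFPI, ACVR1C and ZNF804A, 16 of 157 were gained (10.2%), 156 of 157 lay above the median of all promoters, and the background lay at 0.84 (0.75 to 0.93). Chromosome 15 had medians of 0.40 for promoters and 0.35 for background with 6 gained of 419, and chromosomes 16, 17, 19 and 22 were lower in both.

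**Figure D5:**
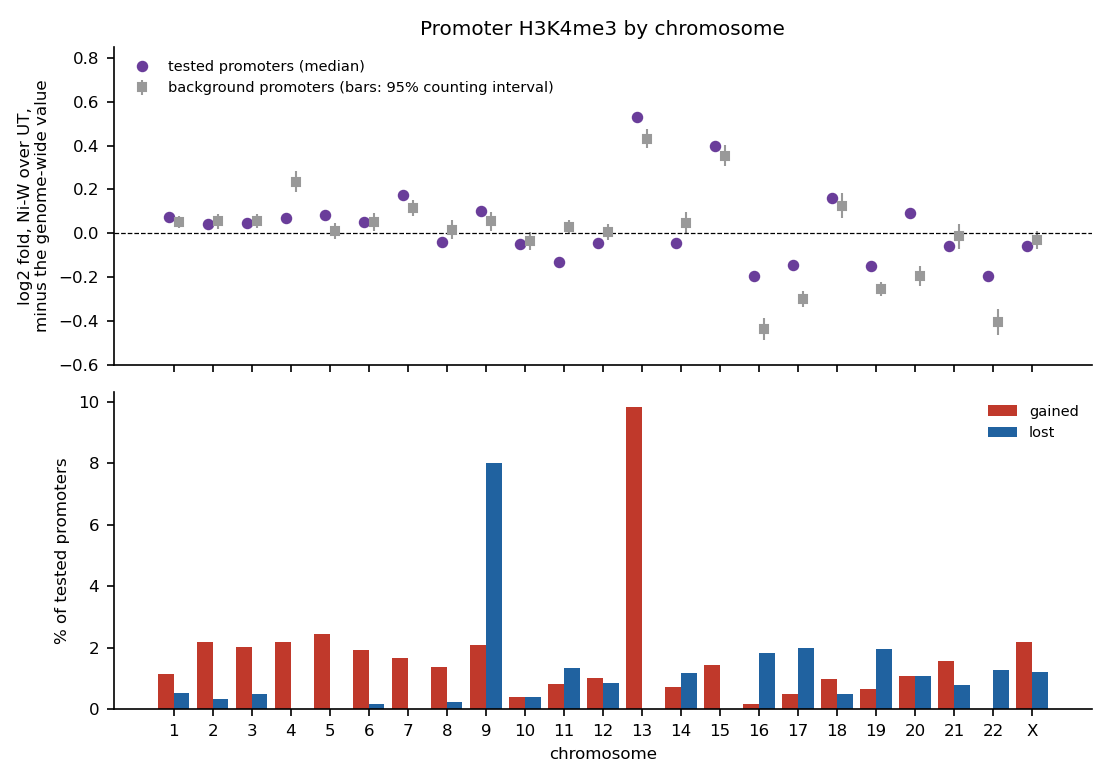
Upper panel, the median log2 fold of Ni-W over UT cells of the promoters compared (circles) and the pooled log2 fold of background promoters with its 95% counting interval (squares), per chromosome, each minus the value over all chromosomes. Lower panel, the share of promoters compared that was gained (red) or lost (blue). Chromosomes 13 and 15 are high and 16, 17 and 22 low in both kinds of promoter, and chromosome 9 has the highest share lost.

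On chromosomes 13, 15, 16, 17, 19 and 22 the shift of unmarked promoters had the sign of that of the promoters compared. On chromosomes 8 (0.02 against −0.04), 11 (0.03 against −0.13), 12 (0.01 against −0.04), 14 (0.05 against −0.04) and 20 (−0.20 against 0.09) it did not. Among these, only on chromosome 20 did the counting interval of the unmarked promoters leave out 0. Whether the number of DNA copies differs between the clone and UT cells was not tested, since input libraries were not analysed here. With the median of each 10 Mb window removed, 254 promoters were gained and 16 lost of the 12989 in windows with enough promoters, and 163 of the gained and 15 of the lost were kept. The gains of KCNH7 (3.52 after removal, against 3.86), EYA2 (3.56), CDH11 (3.89), GRB14 (2.92), SYK (2.87), FSTL5 (2.78), GRB7 (2.54) and MIR125B1 (4.19) stayed well above 2-fold. The losses of M1AP (−1.81), ZNF43 (−1.49), LINGO2 (−1.13), GLDC (−1.03), BCHE (−1.61) and ACTL10 (−1.33) stayed past 2-fold, and those of EFNB3 (−0.77), PLXNB3 (−0.95), KDM4C (−0.33), VLDLR (−0.41), IL11RA (−0.27), DNAJB5 (−0.19) and ALDH1B1 (−0.15) did not. Of the gains named above, PSMD14 (0.70), ACVR1C (0.77), SOX21 (0.97) and IL7R (0.95) fell short of 2-fold after removal. Not every call named above is listed here, so that a call left out need not have stayed past 2-fold.

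A lower threshold gave a different balance. At 1.5-fold, 499 promoters were gained (3.65%) and 2490 lost (18.2%), a split set by the median of −0.32, which places the typical promoter much of the way to a 1.5-fold loss. By list, the 1.5-fold calls were 4 gained and 0 lost of 10 classical cadherins, 5 and 1 of 14 GABA and glutamate receptors, and 5 and 6 of 37 potassium channels. They were 2 and 2 of 25 collagens, 3 and 1 of 22 semaphorins and plexins, and 0 and 14 of 77 cytoplasmic ribosomal proteins. The 14 lost ribosomal promoters are close to the 18.2% lost of all promoters, and gains of weak lists keep the limit of the filter. At a chromatin dynamic score beyond 0.3 in either direction, 625 promoters were gained and 4488 lost.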

How the data were processed

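Promoter H3K4me3 was measured by ChIP-Seq in UT, Ni-E and Ni-W BEAS-2B cells. Per the paper's methods, the authors mapped reads with BWA to hg38, removed duplicate reads without calling peaks, and deposited RPKM values over 2 kb on each side of each start site. ChIP used 2 biological replicates, and whether a library pools them is not given in the sources used here. RPKM values were whole multiples of 1 step in each library (100% within rounding), which gave reads and depth. The smallest level shown, 3 reads, was 0.0200 to 0.0264 RPKM. Levels carry 95% Wilson intervals and ratios 95% exact binomial intervals, and redundant reads were removed without molecular identifiers. Ratios were scaled by library medians, and promoters of at least 1 RPKM on average were compared at 2-fold. Positions are those of GENCODE version 44 (GRCh38, 24028 symbols). Background promoters had under 0.6 RPKM in UT and Ni-W. Scripts were tested on simulated reads. Named genes are the 10 largest changes in each direction, up to 2 called members per list and direction, and epithelial markers. Other genes were named after their values were seen. Members and lists were chosen with earlier results of these data known. Alternatives were other scalings, filters, thresholds, a pseudocount, 1 gene per shared promoter, and removal of regional or GC shifts. RT4 RNA-Seq was not used. Python 3.11.15, pandas 2.3.3, scipy 1.17.1 and samtools 1.23.1 were used. Some genes that the rule names are not reported here.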

Additional observations from a re-analysis of the deposited data

How the results depend on the processing

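With 1 library per condition, differences between cultures could not be measured, and depth limits weak promoters most. The 203 gained and 152 lost promoters became 70 and 3671 without median scaling, 87 lost under quantile normalization, 410 and 17 with centring on marked promoters, 366 and 36 with centring by level, 50 and 66 with a mean of at least 3 RPKM, 478 gained with a mean of at least 0.5 RPKM, 2561 and 492 with no filter, 66 and 37 with a pseudocount of 1 RPKM, 499 and 2490 at 1.5-fold, 625 and 4488 at a chromatin dynamic score past 0.3, 16 lost with the regional shift removed, 28 lost with centring by GC content, and 122 gained with at least 1 RPKM in Ni-E cells, a filter chosen after seeing the data. The median log2 fold of −0.32 became −0.81 without scaling, −0.064 under quantile normalization, 0.017 with centring on marked promoters, 0 with centring by level, regional or GC shift removed, −0.34 with a mean of at least 3 RPKM, −0.30 with at least 0.5 RPKM, −0.12 with no filter, and −0.37 with the pseudocount. Keeping 1 gene per shared promoter gave 203 gained and 150 lost. Of 695 values of 75 named genes under the alternatives, 0 changed sign. These genes were called at 2-fold, and most alternatives left the fold as it was or shifted it by less, so that this count tests little. Of 61 list medians relative to all promoters, 36 took the other sign under at least 1 of 11 alternatives. The cause was not tested. No paired analysis was possible because each condition had 1 library.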
